A study of Mus musculus with 36 samples.

Results

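The comparison concerns B cells induced for 18 h with C/EBPα carrying lysine in place of arginine 35 (R35K) and the same cells induced with wild-type C/EBPα (WT). It rests on 4 RNA-seq libraries of the 36 in the series, 2 of R35K and 2 of WT, chosen by the construct and time in their labels. The 4 libraries of both constructs at 0 hours post induction (hpi) served as a check, because the R35K counts came in a table of their own. The 2 R35A libraries at 18 hpi, in which alanine stands at the same position, and the WT libraries at 120 hpi were used as points of reference. All groups held primary B cells from the bone marrow of C57BL/6J mice, infected with a retrovirus coding for C/EBPα fused to the estrogen receptor (ER) and for human CD4, and selected for human CD4. The cells were kept on inactivated mouse embryo fibroblast feeders with IL-7 and myeloid cytokines, and β-estradiol (E2) was given to move the fusion protein into the nucleus, except at 0 hpi. Feeder cells were removed by their adherence to plastic before RNA was taken. Each construct was delivered by its own infection, so that a construct and its infected population cannot be told apart other than through the libraries at 0 hpi. The study calls the replicates biological duplicates, but the labels give neither ages nor numbers of mice and do not tie replicates to separate animals. The p-values therefore measure only the spread between these libraries.

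C/EBPα is a leucine zipper transcription factor needed for the formation of granulocytes and macrophages. When it is forced into B cells they lose their B cell programme and acquire that of macrophages, a process called B cell to macrophage transdifferentiation (BMT), with the ETS factor PU.1 as a partner at myeloid enhancers. Arginine 35 lies in the transactivating part of the protein and is a substrate of the arginine methyltransferase Carm1. Lysine keeps the positive charge of arginine but cannot be methylated by that enzyme, and alanine removes the charge.

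The 8 libraries held between 13044456 and 16767417 counts each. Of 40354 genes, 17277 had enough counts to be tested. At 0 hpi the labelled cell type was borne out by its markers, with Pax5, a transcription factor of B cells, between 839 and 867 CPM (counts scaled to a common library total) in the 4 libraries. No gene differed between R35K and WT at 0 hpi at a fold of 1.5 and an adjusted p of 0.05 (edgeR, 0%; 1010 genes at an unadjusted p of 0.05, 220 of them with that fold; 0 with DESeq2). The root mean square difference in log2 CPM between an R35K and a WT library was 0.338 to 0.346 at 0 hpi, where the replicates of a construct differed by 0.356 (WT) and 0.325 (R35K). At 18 hpi it was 0.647 to 0.649, against 0.332 between the replicates of either construct. The distance between the constructs thus lay between the replicate distances of R35K and WT at 0 hpi and above both at 18 hpi.

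Feeder cells remained in all libraries. The summed level of 22 fibroblast markers, among them collagens, fibronectin and smooth muscle actin, was 12917 to 13224 CPM in WT and 13340 to 13779 CPM in R35K cells at 0 hpi. At 18 hpi it was 30938 to 31547 CPM in WT and 19127 to 19368 CPM in R35K cells, so the R35K libraries held 0.616 times the level of the WT libraries. Not every marker followed the sum. Over the 32 libraries outside the comparison, 6 of the 22 markers had a Spearman correlation with it below 0.7, and that of the fibronectin gene Fn1 was 0.24. In bulk RNA fewer cells of a type and less RNA per cell cannot be told apart. The part of this difference in the other results was not tested, but counts without the genes that follow these markers are given below where they bear on a result. Of other cell types, 9 of 11 T and NK cell markers and 7 of 9 erythroid markers were not tested, most of them for low counts. The T cell genes tested, Cd4 (0.94) and Cd5 (1.07), were called higher in R35K, but neither was without WT replicate 2 (edgeR, adjusted p = 0.0934 and 0.135) nor Cd5 without R35K replicate 1 (adjusted p = 0.196), and the whole list summed to 1.62 to 2.23 CPM in WT and 3.44 to 4.13 CPM in R35K cells. The mast cell markers summed to 32.7 to 34.6 CPM in WT and 25.2 to 25.6 CPM in R35K cells. The dendritic cell markers summed to 33.4 to 33.7 CPM in WT and 49.9 to 55.3 CPM in R35K cells. Their members were split, with 2 of 6 tested called higher and 1 lower (log2 fold changes from −1.26 to 2.94). The plasma cell markers summed to 411 to 426 CPM in WT and 535 to 546 CPM in R35K cells, with 1 of 5 called, Prdm1 (1.67), a transcriptional repressor also used by macrophages.

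At 18 hpi the 2 constructs had diverged. Of the 17277 genes, 2648 (15.3%) differed by at least 1.5-fold at an adjusted p of at most 0.05 in edgeR's quasi-likelihood test, 1822 (10.5%) higher and 826 (4.78%) lower in R35K cells. The largest differences were nearly all in the direction of R35K: of 403 genes that differed by 4-fold or more, 375 were higher. The balance between the directions depends on the scaling, since DESeq2's size factors in place of TMM moved the median log2 fold change over all tested genes from 0.04 to −0.07 and gave 1482 higher and 1213 lower genes. A refit without the genes that follow the feeder markers gave 1507 higher and 488 lower genes. It also renewed the scaling, with a median log2 fold change of 0, so the counts reflect both steps. Of the 1822 higher genes 6 follow these markers, and of the 826 lower genes 470. Between 0 and 120 hpi, a measure that shares no library with the comparison, 4361 genes (25.2%) rose and 6311 (36.5%) fell in WT cells. Of the rising genes 1431 (32.8%) were higher and 50 lower in R35K at 18 hpi. Of the falling genes 165 were higher and 699 (11.1%) lower.

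**Figure D1:**
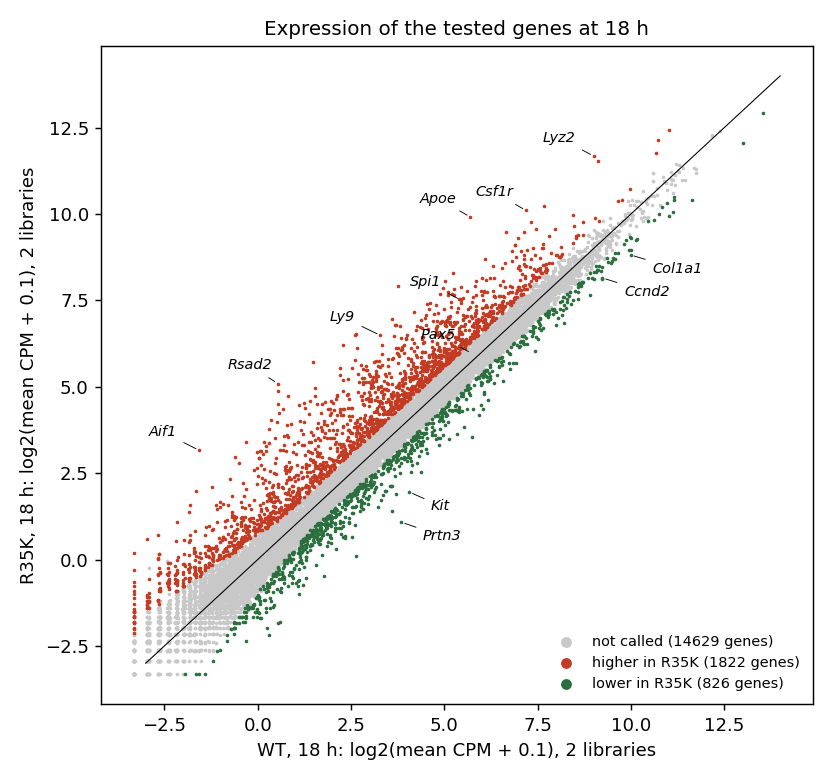
Mean level of each tested gene at 18 hpi in WT (x axis) and R35K cells (y axis), as log2 of CPM plus 0.1, with 2 libraries a construct. Genes called higher (1822) lie above the diagonal and reach far from it, as for Apoe and Rsad2, whereas those called lower (826), such as Kit and Col1a1, stay closer to it.

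The change from 0 to 18 hpi was then compared between the constructs, which removes any difference present at 0 hpi. In this interaction 2303 genes (13.3%) were called, 1539 (8.91%) with a more positive change in R35K cells and 764 (4.42%) with a more negative one. With DESeq2's size factors these counts were 1237 and 1108. Between 0 and 18 hpi 8060 genes (46.7%) changed in WT cells, 4093 (23.7%) rising and 3967 (23%) falling, which became 4787 and 3385 with DESeq2's size factors. In R35K cells 6649 (38.5%) changed, 3340 (19.3%) rising and 3309 (19.2%) falling. Of the 2256 genes that rose in both, 462 rose more in R35K and 50 less.

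The transcripts of the inducing factor and of its partner were higher in R35K cells. Cebpa (mm10, chr7:35119293-35121928) stood at 38.9 and 38.5 CPM in the WT libraries and at 83 and 91 CPM in the R35K libraries at 18 hpi, after 38.5 to 43 and 37 to 39 CPM at 0 hpi. The difference was 1.17 ± 0.0653 (log2 fold change ± SE, n = 2 against 2). Reads of the retroviral construct and of the endogenous gene cannot be told apart in these counts. Esr1, the gene of the estrogen receptor and named after its values were seen, was at 27.4 and 27 CPM in WT and 36.6 and 33.7 CPM in R35K cells, which was short of the fold threshold. Spi1 (chr2:91082390-91115756), which encodes PU.1, was at 43.1 and 43.5 CPM in WT and at 183 and 182 CPM in R35K cells, without overlap (log2 fold change 2.08 ± 0.0535). At 0 hpi all 4 libraries lay between 30.3 and 33.2 CPM of Spi1, so it had risen by 2.56 in R35K cells on the log2 scale, where the WT change of 0.39 did not reach the fold threshold. Carm1 was at 73.2 and 69.3 CPM in WT and at 59.1 and 55.9 CPM in R35K cells, a log2 fold change of −0.31 that did not reach the threshold either. Of the 8 protein arginine methyltransferases tested only Prmt9 was called (0.73), a share near that of all tested genes (15.3%). Its Spearman correlation with the summed feeder markers, over the 32 libraries outside the comparison, was −0.76.

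Other myeloid transcription factors followed. Of 24 tested factors of the C/EBP and myeloid list 15 were higher in R35K and none lower, with a median log2 fold change of 0.85 against 0.04 over all tested genes. Tfec, a relative of the lysosomal regulator Tfeb, went from 2.87 and 2.72 CPM in WT to 26.8 and 26 CPM in R35K (3.24 ± 0.12). Maf, a macrophage differentiation factor, was higher by 1.63, Irf5, an inducer of inflammatory cytokines, by 1.55, Atf3, a stress response factor, by 0.87 and Id2, an inhibitor of helix-loop-helix proteins, by 0.83. Among the factors not called were Cebpb (0.39), Irf8 (0.55) and Runx1 (0.10). In the list of AP-1 and other early response factors, 7 of 19 were higher and 1 was lower. Fos rose to 282 and 283 CPM in R35K against 170 and 162 CPM in WT (0.77), whereas the orphan receptor gene Nr4a1 was at 350 and 354 CPM in R35K and at 615 and 583 CPM in WT (−0.77). Klf6 (0.64) and Fosb (0.66) were called here but missed the fold threshold with DESeq2's size factors.

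**Figure D2:**
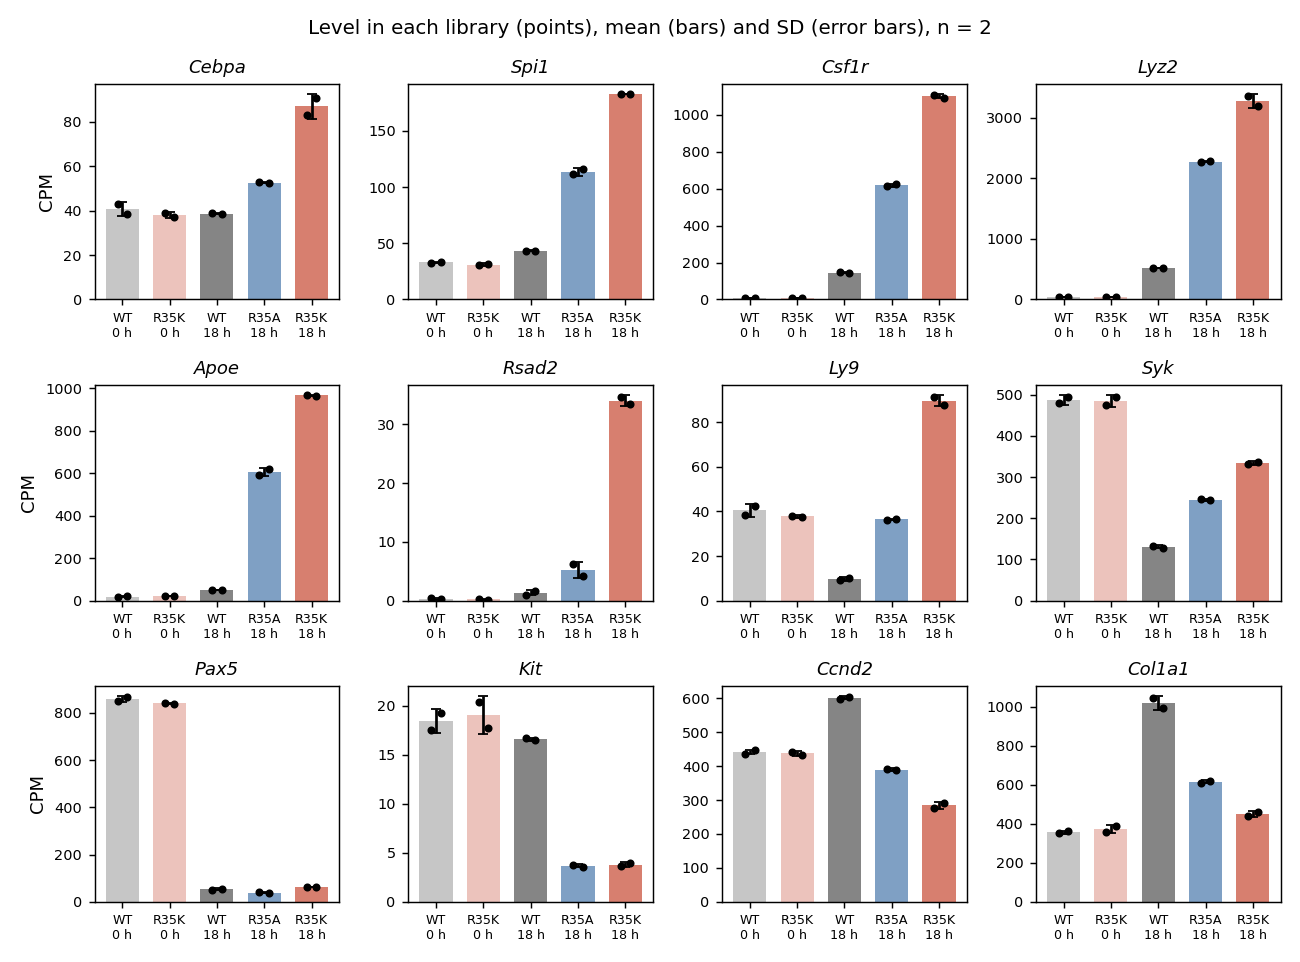
Level in CPM of 12 genes in each library (points), with the mean (bars) and SD (error bars), for WT and R35K at 0 hpi and WT, R35A and R35K at 18 hpi, n = 2 a group. The constructs start level at 0 hpi, and at 18 hpi the myeloid genes Spi1, Csf1r, Lyz2 and Apoe are highest in R35K, while Kit, Ccnd2 and the feeder collagen gene Col1a1 are highest in WT.

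The macrophage programme stood further ahead in R35K cells. All 20 genes of the study's macrophage signature were higher in R35K at 18 hpi, by a median log2 fold change of 2.06 (0.61 to 3.56), and 18 of them in the interaction. This list was chosen by the study and may rest on these libraries, so its direction is not independent evidence. Csf1r, the receptor for the macrophage growth factor CSF-1, was at 148 and 143 CPM in WT and at 1110 and 1093 CPM in R35K, a 7.58-fold difference, after 7.48 to 7.71 CPM in the 4 libraries at 0 hpi. Lyz2, the macrophage lysozyme, stood at 512 and 513 CPM in WT and 3355 and 3191 CPM in R35K (2.67 ± 0.032). Its close copy Lyz1 could share reads with it. Itgam, the integrin subunit known as Mac-1, was at 30.9 and 29.8 CPM in WT and 119 and 120 CPM in R35K (1.98), and Cd14, the coreceptor for bacterial lipopolysaccharide, at 21.8 and 22.7 CPM and at 131 and 124 CPM (2.52). Each of these genes had also risen from 0 to 18 hpi in WT cells, to a lower level. In the refit without the genes that follow the feeder markers all 20 were still tested and 19 remained called (median 1.98). Since none of the 20 was removed, this does not measure the part of the feeder level.

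Receptors by which phagocytes sense and engulf their targets formed the broadest group. Of 46 tested, 44 were higher in R35K and none lower (median 2.27). Tlr2, which senses bacterial lipoproteins, reached 313 CPM in both R35K libraries against 38.6 and 37 CPM in WT (3.05 ± 0.040). The lectin receptor Clec4e, which binds mycobacterial glycolipids, was higher by 3.04, the scavenger receptor Msr1 by 2.59, the integrin Itgal by 2.45 and the lipid sensor Trem2 by 3.12. The signalling adaptors Tyrobp (2.18) and Fcer1g (2.32), through which many of these receptors act, moved alike. The only members not called were Ly96 (0.47) and Axl (−0.33).

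The enzymatic equipment of phagocytes was higher as well. All 6 NADPH oxidase subunits, which produce the oxidative burst, were higher in R35K (median 1.84). The catalytic subunit Cybb stood at 176 CPM in both WT libraries and at 753 and 764 CPM in R35K (2.11). Rac2, a GTPase of the complex shared with lymphocytes, fell in both constructs. It was at 361 and 374 CPM in WT at 0 hpi and at 73.4 and 68.6 CPM at 18 hpi, with 141 and 134 CPM in R35K. Among lysosome genes 17 of 34 were higher (median 0.60), led by the cysteine protease gene Ctss (100 and 103 CPM in WT, 720 and 698 CPM in R35K, 2.81) and by Gpnmb (2.43), a glycoprotein of phagosomes. That count was 14 with DESeq2's size factors. Of 17 genes for scavenging and lipid handling 13 were higher. Apoe (chr7:19696109-19699188), the apolipoprotein of cholesterol export, was at 52.1 and 51.3 CPM in WT and at 967 and 965 CPM in R35K (4.22 ± 0.049), the fatty acid transporter gene Cd36 was higher by 2.22 and lipoprotein lipase, Lpl, by 1.95.

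Signalling molecules of macrophages followed the same direction. Of 26 tested cytokines and chemokine ligands, 22 were higher and none lower (median 1.39). Pf4, a platelet and macrophage chemokine, was at 14.4 and 12.4 CPM in WT and 250 and 232 CPM in R35K (4.17 ± 0.064), and Cxcl2, which draws neutrophils, at 22.8 and 24.9 CPM and at 155 and 147 CPM (2.66). Tnf was higher by 2.29 and the interleukin-1 antagonist Il1rn by 2.14. Of 12 chemokine receptors 8 were higher, with Cx3cr1, the fractalkine receptor, at 1.72 and 1.04 CPM in WT and higher by 3.78 in R35K. Of 10 receptors of the colony-stimulating factor list 6 were higher, among them Csf3r, the G-CSF receptor (3.56), and the common β chain Csf2rb (1.66), whose paralog Csf2rb2 (1.98) could share reads with it. Of the 5 eicosanoid enzymes that were higher among 12, Tbxas1 (thromboxane synthase) differed by 2.61 and Hpgds (prostaglandin D synthase) by 2.41, while Ptgs2 (cyclooxygenase 2) was at 1260 and 1311 CPM in WT and 1100 and 1082 CPM in R35K and was not called.

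Genes of lysozymes and granulocyte granules were split. Of 21 tested, 6 were higher and 4 lower, and of the 4 lower genes Prtn3 and Serpinb1a were also called in the interaction whereas Elane and Fcnb were not. Prtn3, proteinase 3 of promyelocytes, was at 15.2 and 13.4 CPM in WT and at 2.24 and 1.79 CPM in R35K (−2.81 ± 0.17). Serpinb1a, an inhibitor of such proteases, was also lower (−1.17). The secreted metalloproteases Mmp8 (1.61) and Mmp9 (1.56) were higher.

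**Figure D3:**
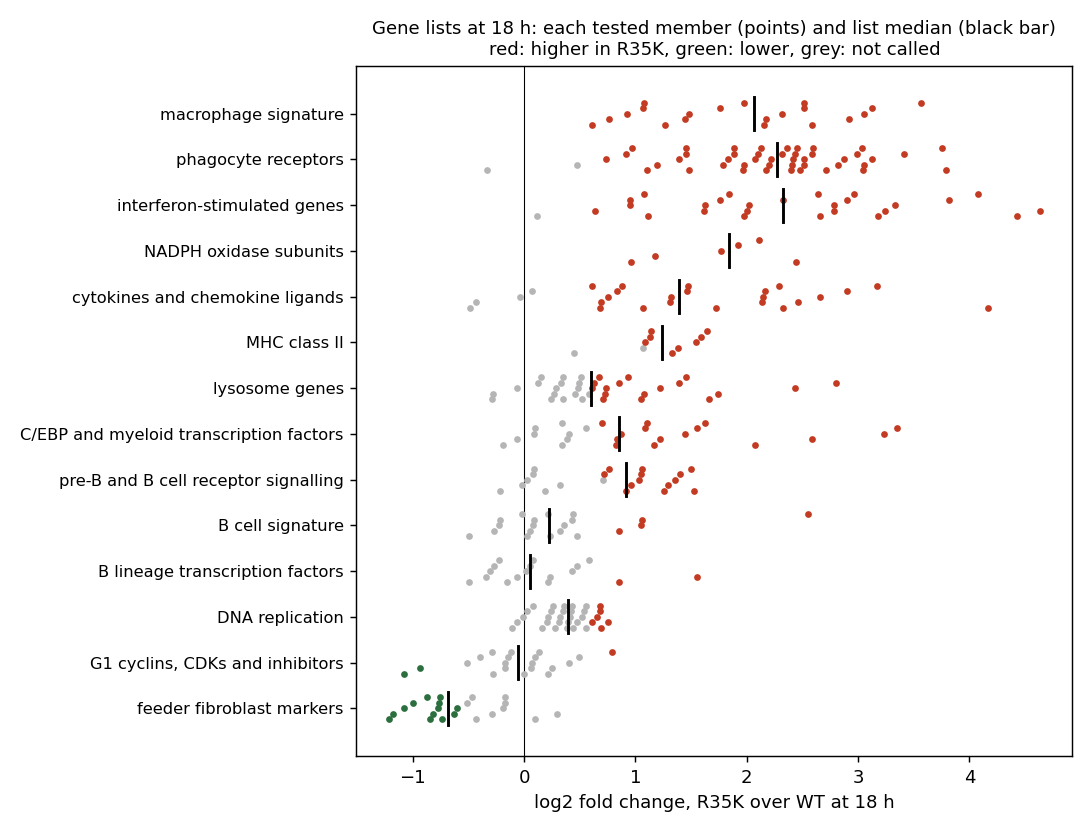
Log2 fold change of R35K over WT at 18 hpi (x axis) for each tested member of 14 gene lists (rows), with the list median as a black bar. Phagocyte receptors (median 2.27) and interferon-stimulated genes (2.32) stand far to the right, the B lineage transcription factors (0.06) at zero and the feeder fibroblast markers (−0.68) to the left.

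Interferon-stimulated genes, which cells switch on through the STAT and IRF factors, had the highest median of the 35 lists examined. Of 27 tested, 26 were higher in R35K and none lower, with a median of 2.32, and 26 were called in the interaction. Rsad2 (chr12:26442746-26456452), the antiviral enzyme viperin, was at 1.02 and 1.68 CPM in WT and at 34.7 and 33.4 CPM in R35K, a 24.8-fold difference, after 0.189 to 0.411 CPM at 0 hpi. Mx1, an antiviral GTPase, stood at 1.4 and 1.33 CPM in WT and 30.1 and 29.1 CPM in R35K (21.6-fold). Oasl2, an oligoadenylate synthase relative, was higher by 4.08 on the log2 scale, Mx2 by 3.81, Oas2 by 3.24 and Oasl1 by 3.18. In WT cells 9 of the 27 rose and 7 fell between 0 and 18 hpi, whereas in R35K cells 22 rose and 1 fell. Isg20 was the member not called (0.12).

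The interferon-stimulated response element (ISRE), searched on both strands as a pair of GAAA half-sites with 2 bases of any kind between them, is the site bound by STAT and IRF complexes. Within the 250 bases before the transcription start (RefSeq, GRCm38.p6) it was found in 10 of the 20 list members with a promoter entry (50.0%), in 394 of 11848 tested genes (3.33%), in 104 of 1280 genes higher in R35K (8.12%) and in 17 of 554 lower genes (3.07%). A search for TTNNGCAA, a C/EBP site, gave 13.0% of the higher, 8.84% of the lower and 8.76% of the genes not called, and one for GAGGAAGT, a PU.1 site, gave 6.95%, 1.62% and 2.67%. These matches are descriptions of letters and not of binding. The promoters of 3 genes named here are shown, 5′ to 3′ on the strand of the gene, because they hold the ISRE, which is in capitals.
Rsad2, chr12:26456453-26456702, minus strand: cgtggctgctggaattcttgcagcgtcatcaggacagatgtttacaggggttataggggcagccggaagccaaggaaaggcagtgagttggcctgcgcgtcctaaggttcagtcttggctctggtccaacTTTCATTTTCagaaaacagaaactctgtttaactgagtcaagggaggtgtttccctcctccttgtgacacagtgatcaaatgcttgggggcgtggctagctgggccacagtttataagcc
Ifit3, chr19:34583279-34583528, plus strand: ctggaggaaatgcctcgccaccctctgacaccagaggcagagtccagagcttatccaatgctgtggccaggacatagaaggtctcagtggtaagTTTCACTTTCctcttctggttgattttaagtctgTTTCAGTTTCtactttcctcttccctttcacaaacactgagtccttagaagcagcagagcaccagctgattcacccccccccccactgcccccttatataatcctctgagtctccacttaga
Bst2, chr8:71537473-71537722, minus strand: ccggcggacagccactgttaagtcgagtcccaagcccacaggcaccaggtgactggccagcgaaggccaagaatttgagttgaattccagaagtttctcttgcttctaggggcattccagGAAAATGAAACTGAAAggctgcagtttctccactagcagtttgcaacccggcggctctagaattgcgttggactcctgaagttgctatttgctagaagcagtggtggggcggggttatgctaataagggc
The promoter of Ifit3, an interferon-induced inhibitor of viral translation, holds the element at 2 places, that of Bst2, the virion tether tetherin, as 2 overlapping matches and that of Rsad2 once.

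**Figure D4:**
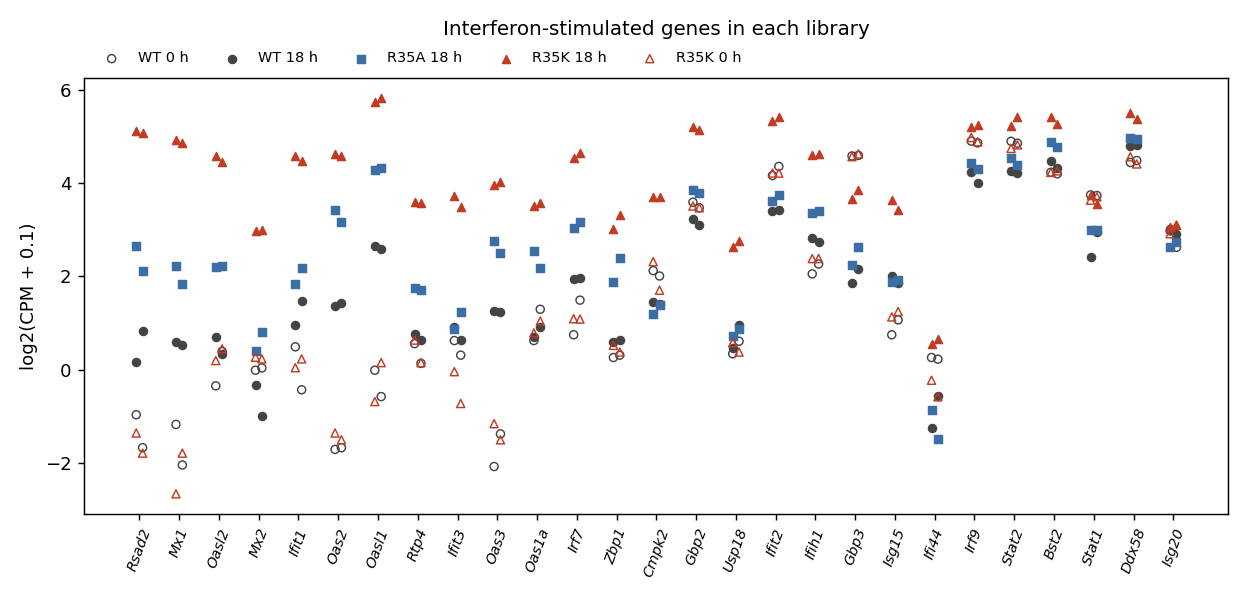
Level of the 27 interferon-stimulated genes (x axis) in each library as log2 of CPM plus 0.1 (y axis), for WT and R35K at 0 hpi (open symbols) and WT, R35A and R35K at 18 hpi (filled symbols), 2 libraries each. From Rsad2 at the left, R35K at 18 hpi (triangles) lies above the WT and R35A libraries of that time in all 27 genes, by least for Isg20 at the right.

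The interferon-stimulated genes were also the list with the highest median when the 2 substitutions were compared at 18 hpi. In the comparison of R35K with R35A, 997 genes (5.77%) were called, 630 (3.65%) higher and 367 (2.12%) lower in R35K. The counts of the 2 substitutions came in separate tables and from separate infections, and R35K was not tested against R35A at 0 hpi. A difference of tables or cultures therefore cannot be told apart from one of constructs here. Of the 27 interferon-stimulated genes 24 were higher in R35K than in R35A, with a median log2 fold change of 1.48 against 0.04 over all tested genes. R35A cells in turn had 14 of the 27 higher than WT cells and none lower, with a median of 0.61. Mx1 was at 4.56 and 3.48 CPM in R35A (R35K over R35A 2.90 ± 0.11), Rsad2 at 6.16 and 4.25 CPM (2.74) and Ifit3 at 1.73 and 2.25 CPM (2.57). Of the macrophage signature 4 of 20 genes (median 0.36) and of the phagocyte receptors 14 of 46 (median 0.40) were higher in R35K than in R35A. Both shares were above the 3.65% of all tested genes. R35A in turn had 19 of the 20 and 43 of the 46 higher than WT and none lower. Csf1r was at 614 and 624 CPM in R35A (0.83) and Itgam at 116 and 111 CPM (0.08). Among genes of at least 5 CPM, those most below R35A were Cxcl5, a neutrophil chemokine (−1.98), the stromal protease Mmp3 (−1.91), Lcn2, an iron-binding protein of granules (−1.76), the vasodilator peptide Adm (−1.76) and the copper carrier Cp (−1.65). Of the 2 other genes among the 5 highest over R35A, the ribosomal RNA gene n-R5-8s1 and the small nuclear RNA gene Rn7sk, the R35K libraries were apart from each other (3.78 and 9.95 CPM, 7.15 and 17 CPM), and their calls over WT were lost without R35K replicate 2 (edgeR, adjusted p = 0.222 and 0.383), without WT replicate 1 (0.0943 and 0.125) and without WT replicate 2 (0.0886 and 0.167). R35A and R35K were each compared with the same WT libraries at 18 hpi, and R35A differed from these in 1728 genes (10%), 1212 higher (7.02%) and 516 lower (2.99%).

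The B cell programme had fallen in both constructs, and most of its genes differed by less than the fold threshold at 18 hpi. All 20 genes of the study's B cell signature fell between 0 and 18 hpi in WT (median −3.58) and in R35K cells (median −3.27), and at 18 hpi 4 of 20 were higher in R35K and none lower (median 0.23). Like the macrophage signature, it is a list of the study's own. Pax5, the factor that holds B cell identity, was at 849 and 867 CPM in WT at 0 hpi, at 49.9 and 56.1 CPM in WT at 18 hpi and at 63.1 and 61.8 CPM in R35K (log2 fold change 0.23, not called). Ebf1, the pioneer factor of the lineage, was at 48.7 and 49.7 CPM in WT and 51.2 and 51.1 CPM in R35K (0.06), and it turned to −0.05 with DESeq2's size factors. Rag2, one of the recombinase subunits, was at 1.28 and 1.39 CPM in WT and 1.06 and 2.42 CPM in R35K, where the libraries overlap. Of 17 B lineage transcription factors 2 were higher, Ikzf3 (0.86) and Pou2f2 (1.55), a share near the 10.5% of all tested genes called higher. The list median of 0.06 turned to −0.05 with DESeq2's size factors. Over the 32 libraries outside the comparison the Spearman correlation with the summed feeder markers was −0.85 for Pou2f2 and 0.11 for Ikzf3. In the comparison with R35A, 10 of the 20 signature genes were higher in R35K, among them Pax5 (0.72). R35A itself had 5 of the 20 lower and 1 higher than WT (median −0.42).

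Genes of pre-B and B cell receptor signalling behaved differently from the factors. Of 21 tested, 13 were higher in R35K and none lower (median 0.91). Syk, a kinase downstream of the receptor, was at 479 and 496 CPM in WT at 0 hpi, at 133 and 128 CPM in WT at 18 hpi and at 331 and 337 CPM in R35K (1.36 ± 0.036). The kinases Lyn (1.26) and Btk (1.03), phospholipase Plcg2 (0.96), the tetraspanin Cd37 (1.29), the adaptor Blnk (0.71) and the kinase Blk (1.06) were higher too. Over the 32 libraries outside the comparison the Spearman correlation with the summed feeder markers was −0.91 for Syk, −0.91 for Plcg2, −0.89 for Cd37 and −0.81 for Btk, but −0.56 for Lyn, 0.08 for Blk and 0.03 for Blnk, and the part of the feeder level in these results was not tested. Syk, Lyn, Btk and Plcg2 also act below Fc receptors and integrins in myeloid cells. The receptor components themselves, Cd79a (0.02), Cd79b (0.09), Vpreb1 (−0.02) and Igll1 (−0.21), were not called. Of 12 genes of V(D)J recombination 1 was called, the nucleotide transferase Dntt (1.04), where 15.3% of all tested genes were called. MHC class II genes, shared by B cells and macrophages, were likewise higher, 8 of 10 with a median of 1.24. H2-Aa fell from 61.2 and 63 CPM at 0 hpi to 11.1 and 11.3 CPM in WT and stood at 34.8 and 32.8 CPM in R35K (1.59), and the class II transactivator Ciita at 1.15 and 1.33 CPM and at 3.78 and 3.51 CPM (1.55). The same correlation was 0.01 for H2-Aa, −0.04 for Ciita and −0.91 for the invariant chain gene Cd74 (higher by 1.65).

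A group of 54 genes moved in opposite directions, falling from 0 to 18 hpi in WT cells and rising in R35K cells. Their difference between the constructs was fixed by this choice. The following members were named after their values were seen. Ly9, a SLAM family receptor of lymphocytes and macrophages, was at 38.5 and 42.4 CPM in WT and 38.1 and 37.4 CPM in R35K cells at 0 hpi, and at 9.12 and 10.2 CPM in WT and 91.4 and 87.8 CPM in R35K cells at 18 hpi, a difference of 3.21 ± 0.075 (correlation with the feeder markers −0.85). Ptprc, the pan-leukocyte phosphatase CD45, was at 120 and 123 CPM in WT and 435 and 431 CPM in R35K at 18 hpi (1.83). The inflammasome sensor Nlrp3 (2.01) and its effector protease Casp1 (2.16) behaved alike, as did Il7r, the interleukin-7 receptor of early B cells, with 27 and 28.5 CPM in WT and 104 and 110 CPM in R35K (1.95). At 120 hpi Ptprc was at 1206 and 1296 CPM and Nlrp3 at 826 and 852 CPM in WT cells, above their levels at 0 hpi. The reverse, rising in WT and falling in R35K, was called for 20 genes.

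Other early B cell surface genes were split. Of 13, 6 were higher and 2 lower in R35K, with Cd93, a glycoprotein of early B cells and phagocytes (1.15), and the ectoenzyme Enpep (1.03) among the former. Kit (chr5:75574916-75656722), the receptor of stem cell factor, was at 17.6 and 19.3 CPM in WT and 20.4 and 17.7 CPM in R35K at 0 hpi, and at 16.7 and 16.5 CPM in WT and 3.6 and 3.95 CPM in R35K at 18 hpi (−2.14 ± 0.13). Flt3, the receptor of FLT-3 ligand, was at 5.49 and 5.15 CPM in WT and 2.42 and 1.98 CPM in R35K (−1.26). Both growth factors were in the medium of all groups. R35A libraries had 3.79 and 3.58 CPM of Kit, and R35K was not called against them (0.04). The nuclear organizer Satb1 (−1.03) and the chromatin protein Cecr2 (−0.71), named after their values were seen, were lower in R35K than in WT.

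Cell cycle genes fell in both constructs, and most of them differed by less than the fold threshold between the constructs at 18 hpi. All 32 DNA replication genes and all 26 mitosis genes fell from 0 to 18 hpi in WT and in R35K cells. At 18 hpi 6 of the 32 (median 0.39) and 6 of the 26 (median 0.46) were higher in R35K, which became 2 and 4 with DESeq2's size factors. Pcna, the replication clamp, was at 47.9 and 47.1 CPM in WT and 81.7 and 78.4 CPM in R35K (0.75), and Mki67, the proliferation antigen, at 129 and 123 CPM and at 176 and 185 CPM (0.52, not called). In the list of G1 cyclins, kinases and inhibitors 1 of 20 was higher and 2 were lower, a share near that of all tested genes (15.3%). The lower genes were the D-type cyclins Ccnd2, at 598 and 605 CPM in WT and 277 and 292 CPM in R35K (−1.08 ± 0.033), and Ccnd1, at 190 and 194 CPM and at 98.1 and 103 CPM (−0.93). At 0 hpi Ccnd2 was at 437 and 447 CPM in WT and at 443 and 433 CPM in R35K, between the levels of the constructs at 18 hpi.

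Most genes lower in R35K followed the level of the feeder markers. Of the 826 genes, 470 (56.9%) had a Spearman correlation of at least 0.7 with the summed feeder markers over the 32 libraries outside the comparison, against 2164 of 17277 tested genes (12.5%) and 6 of 1822 higher genes (0.329%). A correlation of −0.7 or below was found in 332 of the 1822 higher genes, 1 lower gene (0.121%) and 1461 of all tested genes (8.46%). Since these libraries share time points and the marker genes are among them, the correlations are a description. Of the 22 feeder markers 13 were lower in R35K and none higher (median −0.68). Acta2, smooth muscle actin, was at 3209 and 3125 CPM in WT and 1382 and 1346 CPM in R35K (−1.21), and Sparc, a matrix protein, at 2260 and 2229 CPM and at 1084 and 1045 CPM (−1.08). Col1a1, a collagen chain named after its values were seen, was at 1043 and 994 CPM in WT and 440 and 461 CPM in R35K (−1.18). At 0 hpi no feeder marker was called. Among the 12 lower genes of the largest fold were several of mesenchymal tissue, Igfbp2 (−2.20), an IGF carrier, Abi3bp (−2.22), a matrix protein, Myh11 (−1.86), smooth muscle myosin, Aspn (−1.74), a small proteoglycan, and Ptn (−1.71), pleiotrophin. Of the 699 lower genes that also fell in WT cells between 0 and 120 hpi, 449 followed the feeder markers and 250 did not. The genes under this limit included Prtn3 (correlation −0.53), Kit (0.43) and Ccnd2 (0.54).

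Expression was also placed on the course of WT cells from 0 to 120 hpi, as the percentage of the way each library had gone along the line between the WT means at these times. Over 10672 genes that changed in that course, WT at 18 hpi stood at 16.3 ± 0.053% and R35K at 31.1 ± 0.18% (mean ± SD, n = 2), with R35A at 28.3 ± 0.016% and R35K at 0 hpi at 0.684 ± 0.033%. The groups did not overlap. With 2 against 2 libraries an exact permutation test cannot go below 0.333, so none was run. Over the genes that rise in the course WT was at 24.7% and R35K at 50.3%. Over those that fall the difference was smaller, with WT at 10.1% and R35K at 16.7%. Of the 699 falling genes called lower in R35K at 18 hpi, 449 followed the feeder markers. The part of the feeder level in the falling position was not tested. The B cell signature, DNA replication and mitosis lists fell in both constructs. Their medians in R35K against WT were 0.23, 0.39 and 0.46, with no member called lower. R35K cells had been at 47.1% of the rising course already at 1 hpi, against 23.1% in WT, and between 6 and 18 hpi R35K went from 50.2 to 50.3%. At 120 hpi R35K stood at 98.9% of the rising and 92.2% of the falling course.

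**Figure D5:**
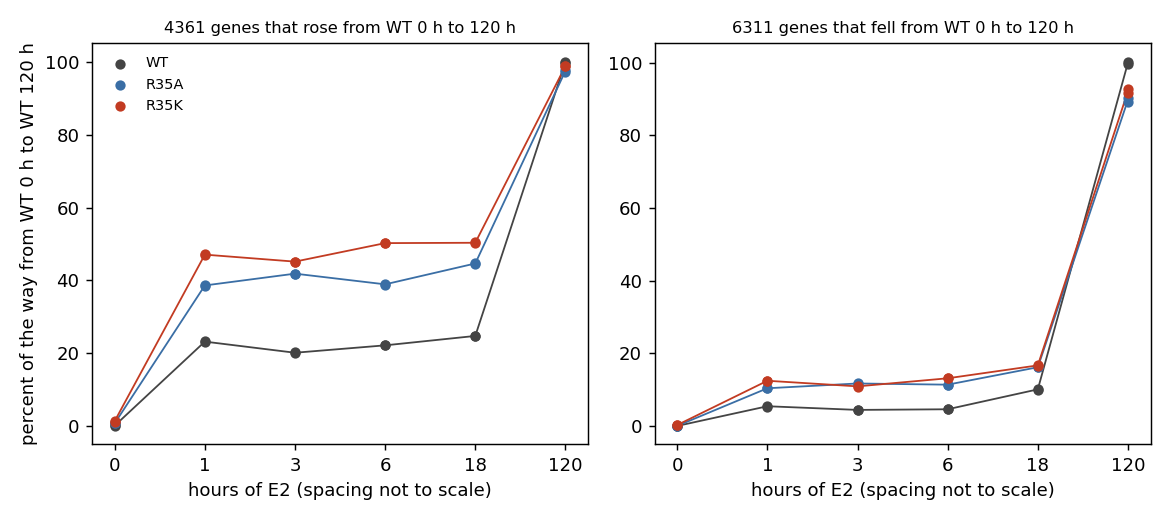
Position of each library (points, with lines through the means) on the way from WT at 0 hpi to WT at 120 hpi, in percent, against hours of E2 (x axis, not to scale), for the genes that rose (left) and fell (right) in WT cells. At 18 h R35K stands at 50.3% and WT at 24.7% in the rising genes and at 16.7% and 10.1% in the falling genes. The part of the feeder level in these positions was not tested.

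Of 20 genes of glycolysis and hypoxia 5 were higher and 1 lower (median 0.27), with the myeloid hexokinase Hk3 (2.01) and the lactate transporter Slc16a3 (1.88) highest. Of 25 genes of cholesterol synthesis and uptake 2 were higher, a share near the 10.5% of all tested genes called higher. Insig1 (0.62), a regulator of sterol sensing, was among them. Of 15 BCL2 family genes 4 were higher, among them Bcl2a1b (2.36), an anti-apoptotic gene with near-identical copies that could share its reads. None of 15 heat shock and stress genes, 7 mitochondrially encoded genes or 5 sex-linked genes was called.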

How the data were processed

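RNA-seq was made from 36 libraries of 3 constructs at 6 times with 2 replicates each. The authors aligned reads with STAR 2.5.0a and deposited counts of reads per gene, with log2 normalized counts made with DESeq2 1.14.1, per the submitters' processing notes. FastQC is named there without a version. The annotation release and the strand setting of the counts were not given in the sources used here, so antisense and overlapping genes are uncertain. The deposited log2 values entered only an alternative for the position on the WT course.

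The tables were joined by gene symbol and all 36 libraries fitted together, with TMM scaling and edgeR 4.0.16 (limma 3.58.1, R 4.3.3), a quasi-likelihood test and Benjamini-Hochberg adjustment. The common biological coefficient of variation was 3.27%. A gene was called at a fold of 1.5 and an adjusted p of 0.05. Log2 CPM used a prior count of 2. The fit was tested on simulated data in which 200 genes were changed 2-fold or 4-fold, evenly up and down. Changes so few and balanced cannot show an effect of the scaling on the calls. Of the 200 genes 80% were called, with 4 false calls among the other genes. The share was 100% for genes with a mean count of at least 100 in WT at 18 h. It was 47.4% under 100 counts and 18.2% under 20, so a gene of low count that was not called may still differ. Coordinates are from GENCODE vM21 (mm10), which held 39171 of the 40354 symbols. Alternatives were DESeq2 1.42.0, its size factors, other filters and fold thresholds, fewer libraries, a replicate block, each library left out and, chosen after seeing the data, the removal of genes that follow the feeder markers.

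The members and lists were chosen with earlier results of these data known. Genes named were 11 of the process, the 12 with the largest fold each way among called genes of at least 5 CPM with groups that do not overlap and the interaction called, up to 6 of each list by adjusted p and the 5 with the largest fold each way against R35A. Esr1, Ly9, Ptprc, Nlrp3, Casp1, Satb1, Cecr2 and Col1a1, the list members Cebpb, Irf8, Runx1, Cd79a, Cd79b, Vpreb1 and Igll1, and single members not called were named after their values were seen. Some genes covered by this rule are not reported here.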

Additional observations from a re-analysis of the deposited data

Results flagged for a closer look

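The change from 0 to 18 hpi differed between R35K and WT in 2303 genes by the interaction term, 1539 with a more positive and 764 with a more negative change in R35K (1237 and 1108 with DESeq2's size factors). Of these, by a choice that fixes the difference, 54 fell in WT and rose in R35K cells, and 20 rose in WT and fell in R35K cells.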

How the results depend on the processing

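At a 2-fold threshold R35K against WT at 18 h gave 1383 genes (1078 higher, 305 lower), the interaction 1135 (864 and 271), R35K against R35A 346 (218 and 128), R35K at 18 against 0 h 4020 (1890 and 2130) and WT 4674 (2071 and 2603). By adjusted p alone in edgeR the counts were 7076 (4178 and 2898), 5316 (3205 and 2111), 4785 (2879 and 1906), 11508 (6041 and 5467) and, for WT, 12244 (6129 lower). At 0 h 9 genes were lower in R35K without a filter and 5 in a fit of the libraries at 0 and 18 h alone, against none otherwise. In all of these genes WT replicate 1 held the highest count. For n-R5-8s1 the counts were 151 and 9 in WT and 7 and 12 in R35K, so these calls rest on 1 library. In the refit without the genes that follow the feeder markers, which also renewed the scaling, the lower genes were 488 and those of the interaction 405. The position on the WT course with the authors' log2 values was 15.6% (WT), 30.2% (R35K), 27.5% (R35A) and 0.835% (R35K at 0 h), and with a prior count of 1 30.2% (R35K), 27.8% (R35A) and 0.83% (R35K at 0 h). The interaction was split 1237 higher and 1108 lower with DESeq2's size factors and 1144 and 880 with its Wald test. Leaving out 1 library gave 2433 to 2490 genes for R35K against WT at 18 h and 2157 to 2231 for the interaction. Ebf1 turned to −0.050 with DESeq2's size factors, −0.049 with its Wald test and −0.032 without the feeder-like genes, and Rag2 to −0.32 without R35K replicate 2 (0.86 without replicate 1). The causes were not tested.

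Same-numbered replicates of the 4 main groups did not deviate together (6 pairs, median correlation −0.0156). Over all 153 pairs of groups the correlations ran from −0.45 to 0.25, with 9 over 0.1. The median squared deviation between replicates at 18 h was 1.27 (WT) and 1.30 (R35K) times that of counting noise. With so little beyond counting noise, the correlations cannot show whether same-numbered replicates share animals or batches. With the replicate block 2628 genes were called for R35K against WT at 18 h and 2287 for the interaction, and it changed no call of a named gene. Genes under the count filter could not be tested at this depth.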
